A study of Caenorhabditis elegans with 11 samples.

Results

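The high-yolk arrays were the 4 of 11 on which the yolk gene vit-2 lay above a log2 level of 6: the 3 phenylalanine-betaxanthin arrays and indicaxanthin replicate 3. The low-yolk arrays were the other 7: indoline carboxylic acid-betacyanin (indoline-betacyanin below) replicates 1 to 3, indicaxanthin replicates 1 and 2, and control replicates 1 and 2. Each array held RNA from whole animals of the wild-type strain N2. All were grown from bleach-synchronised L1 larvae in S medium at 20 °C, and every array carries the same age label, young adults of 3 days after hatching. The betalains, plant pigments in which betalamic acid is joined to an amine, were given at 25 uM for 48 h, starting 16 to 18 h after hatching, and control animals received none. Indicaxanthin is the proline-betaxanthin, so it and phenylalanine-betaxanthin differ in the amino acid joined to betalamic acid. Per the labels the replicates were independent trials. What a trial shared is not given, so the p-values below cover the spread between these arrays and no more.

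The arrays were chosen by a measured value, and every array entered the choice. The high-yolk against low-yolk differences below are therefore a description and carry no test. Because the split crosses the indicaxanthin group, it is not a comparison of treatments. Around the threshold, vit-2 stood at 10.08 on the lowest high-yolk array, phenylalanine-betaxanthin replicate 2, against 5.15 on the highest low-yolk array, indoline-betacyanin replicate 2. The next highest low-yolk array, indoline-betacyanin replicate 1, stood at 2.90. The adult cuticle collagen col-19, the other marker, stood at 9.51, 9.40 and 9.28 on phenylalanine-betaxanthin arrays 1 to 3 and at 9.43 on indicaxanthin 3, against 2.40, 3.10 and 5.02 (lowest, median and highest) on the low-yolk arrays. The low-yolk arrays thus lay far below the high-yolk arrays for both markers, although they carry the young adult label too. For comparison, the median level of all clusters was 1.94 to 2.17 on the 11 arrays.

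A C. elegans larva moults through stages L1 to L4 and becomes an adult at the last moult. At each moult the hypodermis builds a new cuticle, made of collagens and set up by a temporary apical matrix, and the heterochronic genes set which stage-specific cuticle is made. In the hermaphrodite the germ line makes sperm in the last larval stage and oocytes afterwards, and the adult intestine makes the yolk that oocytes take up. The germ line keeps most X-linked genes silent through much of its development. On whole-animal arrays, fewer cells of a type and less RNA per cell cannot be told apart.

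Levels are log2 signals as deposited, and a difference of 1 is a 2-fold change. A gene is called higher or lower where all 4 high-yolk arrays lay beyond all 7 low-yolk arrays and the means differed by 1 or more. Of 26727 named genes, 3660 (13.7%) were higher and 2953 (11%) lower by this definition, and 171 and 46 of them differed by 5 or more. The median difference over all genes was -0.04. Arrays of the high-yolk class correlated at 0.990 to 0.995 with each other, against 0.919 to 0.993 among low-yolk arrays and 0.788 to 0.835 across the split. Over the 6613 genes called, the median spread among the 4 high-yolk arrays was 0.409. These percentages were fixed by the choice of arrays, and the counts of list members below are given beside them and read no further.

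**Figure D1:**
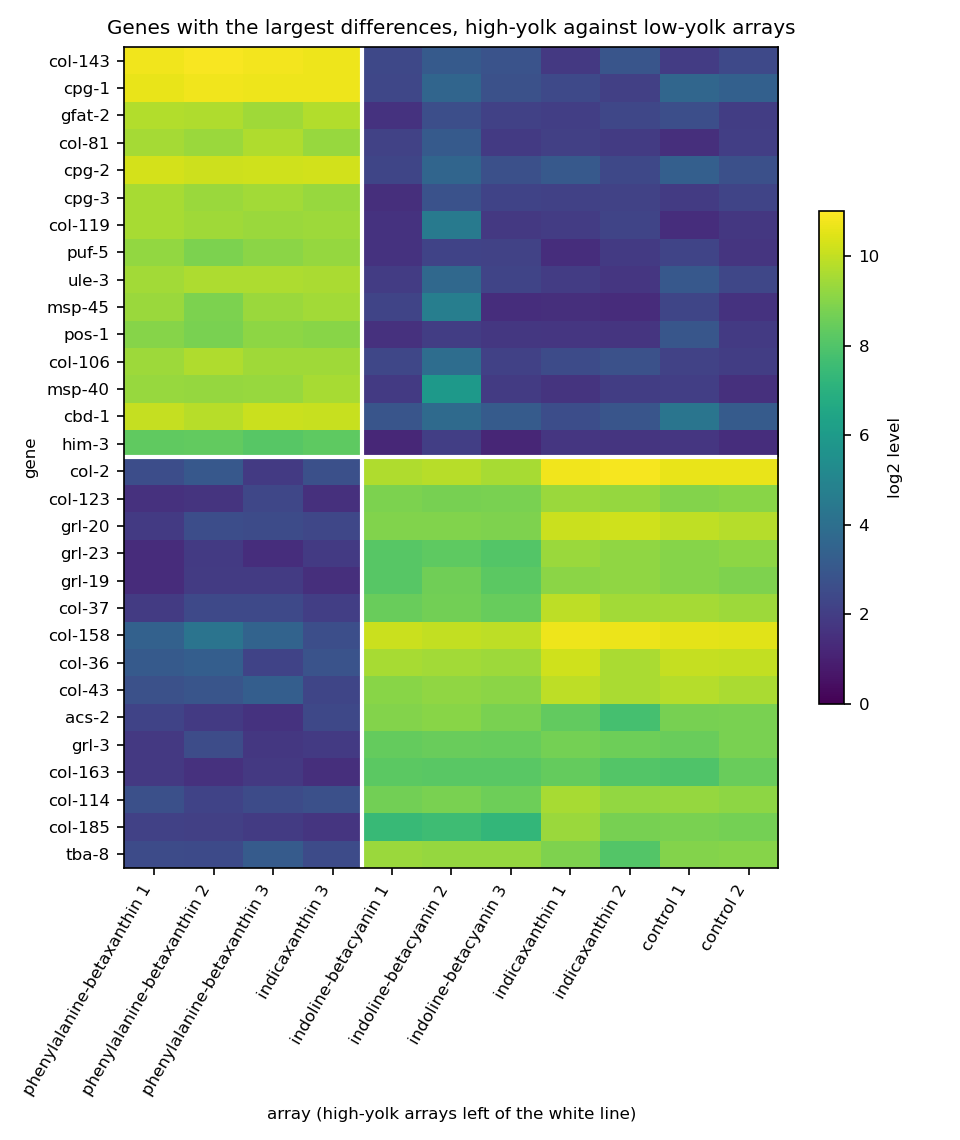
Log2 level (colour, 0 to 11) of the 15 named protein-coding genes with the largest positive and the 15 with the largest negative difference, other than vit genes (rows), on the 11 arrays (columns, high-yolk arrays left of the white line). The upper genes are bright on the left and the lower genes on the right. On indoline-betacyanin 2, msp-40 at 5.94, msp-45 at 4.72 and col-119 at 4.53 are among the brightest low-yolk cells of the upper rows.

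Genes of oocytes and of the eggshell stood far above the low-yolk arrays. Of 21 measured genes for oocyte RNA-binding proteins and yolk uptake, 19 were higher and none lower, with a median difference of 5.82. Their mean level was 7.90 to 8.11 on the high-yolk arrays, against 2.64 to 3.25 on the low-yolk arrays. rme-2, the yolk receptor of the oocyte, stood at 7.97, 7.66 and 8.07 on the phenylalanine-betaxanthin arrays and 8.18 on indicaxanthin 3, against 1.58, 1.67 and 2.1 (lowest, median and highest) on the low-yolk arrays, a difference of 6.21. All 4 high-yolk arrays thus lay far above every low-yolk array for the receptor. puf-5, a translational repressor of maturing oocytes, stood at 9.23, 8.81 and 9.09 with phenylalanine-betaxanthin and 9.28 on indicaxanthin 3, against 1.44, 1.87 and 2.25 on the low-yolk arrays. pos-1, a zinc finger protein of the oocyte and early embryo, stood at 9.02, 8.77 and 9.12 and at 9.05, against 1.56, 1.80 and 2.96, the last on control 1. mex-5, which sets polarity of the early embryo, differed by 6.25 and cey-3, a cold-shock domain protein, by 6.16. The 2 members not called were etr-1, whose arrays overlapped, and lin-41, which lay above by 0.94.

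The eggshell list had 15 of 17 genes higher, none lower and a median difference of 5.69. cpg-1, a chondroitin proteoglycan of the eggshell, stood at 10.63, 10.76 and 10.73 with phenylalanine-betaxanthin and 10.73 on indicaxanthin 3, against 2.07, 2.74 and 3.63 on the low-yolk arrays. The proteoglycans cpg-2 and cpg-3 differed by 7.37 and 7.31, and the chitin-binding cbd-1 by 6.75. chs-1, the chitin synthase of the eggshell, differed by 5.69. gfat-2, named for the aminotransferase that starts hexosamine synthesis, stood at 9.73, 9.71 and 9.44 and at 9.72, against 1.62, 2.14 and 2.65. egg-5, a pseudophosphatase of egg activation, averaged 9.30 ± 0.16 on the high-yolk arrays (SD, n = 4) and 2.82 ± 1.24 on the low-yolk arrays (SD, n = 7), of which control 1 was highest at 5.36. mbk-2, whose arrays overlapped, and cul-2, above by 0.94, were the eggshell members not called.

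Earlier steps of germ cell development stood higher too, by smaller amounts. All 29 measured genes of meiotic synapsis and recombination were higher, with a median of 3.02, and their mean level was 5.22 to 5.52 on the high-yolk arrays, against 1.95 to 2.2 on the low-yolk arrays. him-3, an axis protein of meiotic chromosomes, stood at 8.32, 8.34 and 8.14 with phenylalanine-betaxanthin and 8.26 on indicaxanthin 3, against 1.20, 1.71 and 2.03 on the low-yolk arrays. The pairing-centre proteins zim-1 and zim-2 differed by 5.21 and 4.90, and dsb-1, needed for meiotic double-strand breaks, by 4.78. Of 22 genes of P granules, the RNA granules of germ cells, 21 were higher with a median of 3.29, led by wago-1 (6.15), an Argonaute, and meg-1 (6.02). Only rde-12 of that list overlapped.

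The germ stem cell and sperm-oocyte switch list had 16 of 22 genes higher and none lower, with a median of 1.91. glp-1, the Notch receptor that keeps germ stem cells dividing, stood at 5.56, 5.64 and 5.55 with phenylalanine-betaxanthin and 5.53 on indicaxanthin 3, against 1.85, 2.30 and 2.56 on the low-yolk arrays. gld-1, a translational repressor that acts as germ cells enter meiosis, differed by 6.23 and its partner of the sperm-oocyte switch fog-2 by 4.96. rnp-8 differed by 6.61 and gld-3 by 5.63; both encode partners of the poly(A) polymerase GLD-2. Not called were fbf-1, fbf-2, fog-3, tra-1, fem-1 and lst-1. The replication and cell cycle list had 32 of 37 genes higher with a median of 2.55, including the mitotic cyclins cyb-1 (4.38) and cyb-3 (4.19), orc-1 (4.06) of the origin recognition complex and the aurora kinase air-1 (3.50). Its 1 lower member was cki-1, an inhibitor of cyclin-dependent kinases, at 3.37, 3.24 and 3.57 with phenylalanine-betaxanthin and 3.39 on indicaxanthin 3, against 5.20, 5.69 and 5.77 on the low-yolk arrays. All 8 genes of the mcm class, the replicative helicase and its relatives, were higher, and so were 7 of 8 puf genes.

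**Figure D2:**
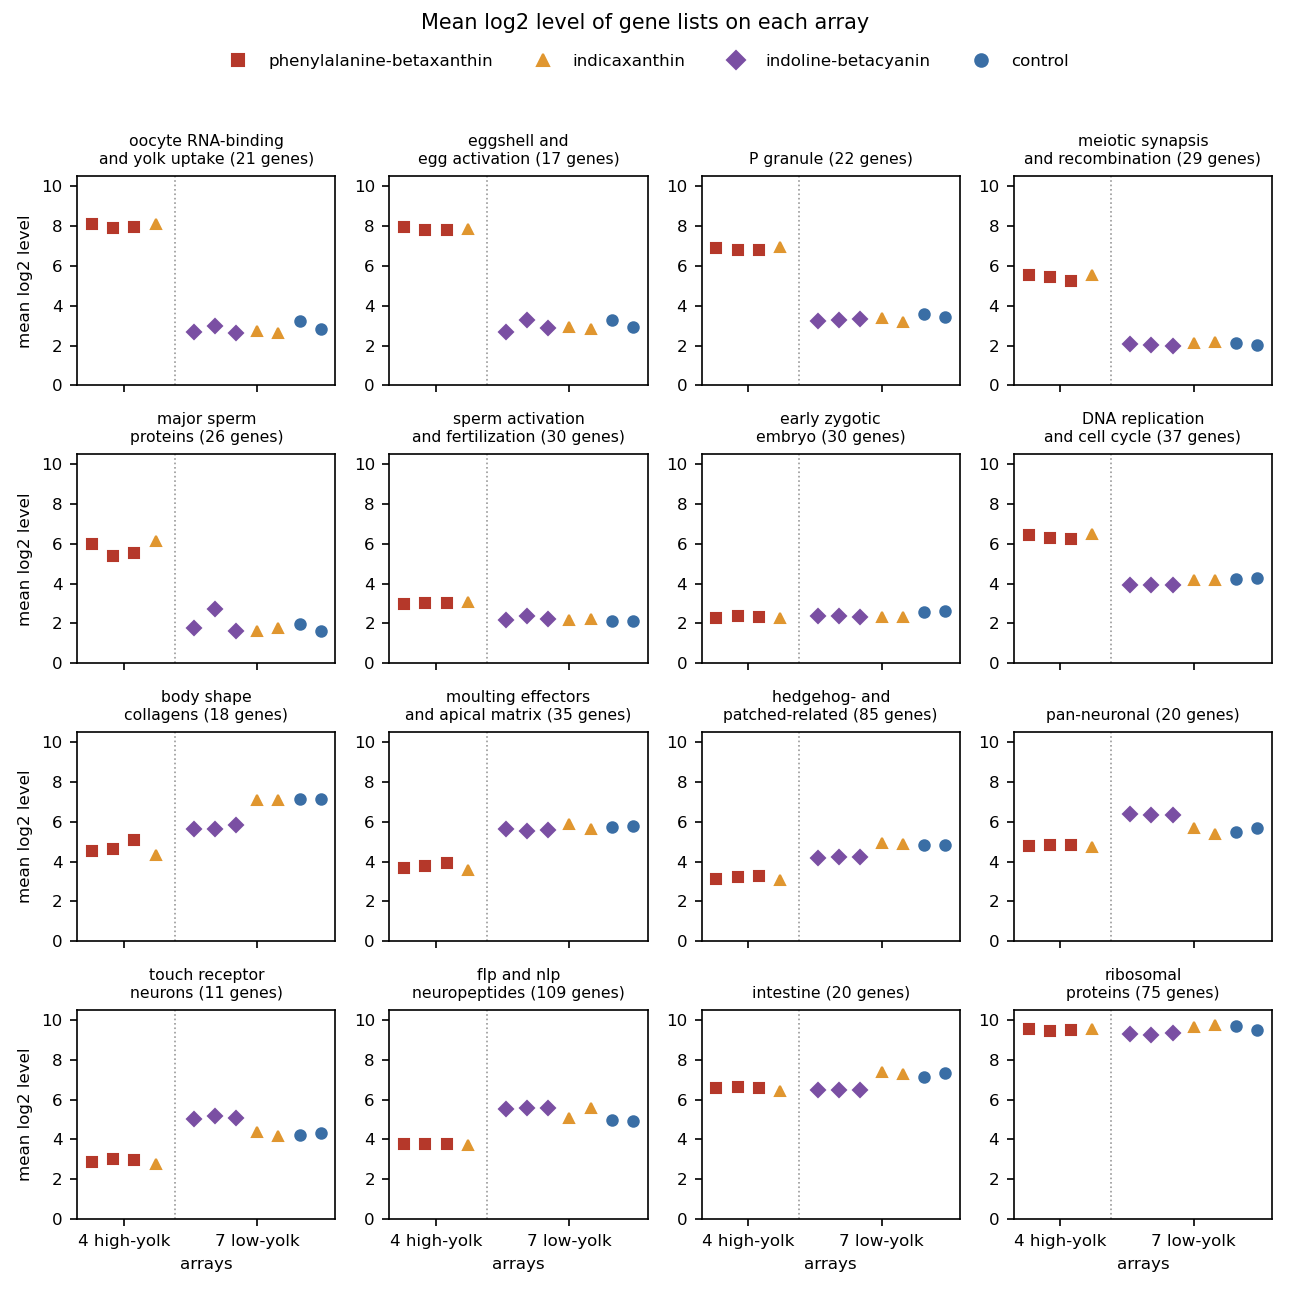
Mean log2 level over the measured genes of 16 lists (vertical axis, 0 to 10) on each array, with the 4 high-yolk arrays left of the dotted line and the 7 low-yolk arrays right of it; each symbol is 1 array, coloured by treatment. The oocyte list runs from 7.90 to 8.11 on the left and from 2.64 to 3.25 on the right, while the early zygotic list lies between 2.27 and 2.60 on all arrays and the moulting effectors lie lower on the left, at 3.57 to 3.92.

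Sperm genes divided. The major sperm proteins, the cytoskeletal proteins that drive the crawling of nematode sperm, had 21 of 26 genes higher and none lower, with a median of 4.38 and a list mean of 5.38 to 6.13 on the high-yolk arrays, against 1.61 to 2.73 on the low-yolk arrays. msp-45 stood at 9.34, 8.84 and 9.34 with phenylalanine-betaxanthin and 9.47 on indicaxanthin 3, against 1.40, 1.63 and 4.72 on the low-yolk arrays, the last on indoline-betacyanin 2. Their sequences are near-identical, so probes may be shared and single msp values are uncertain. Of 30 genes for sperm activation and fertilization, 8 were higher and 1 lower, with a median of 0.49. spe-11, a paternal protein needed by the embryo, differed by 4.28 and spe-44, a regulator of spermatocyte transcription, by 3.40. spe-9, the sperm surface protein for fertilization, stood at 1.89, 1.88 and 1.68 and at 2.01, against 1.48, 1.65 and 1.77, so that its arrays overlapped near the array median. fer-1, spe-38, spe-10 and spe-42 overlapped as well. swm-1, a protease inhibitor that blocks early sperm activation, was the lower member at -1.20. Of 48 nematode-specific sperm peptide genes, 13 were higher and none lower, with nspd-1 at 6.18.

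Of 30 genes listed for the early zygotic embryo, 3 were higher and 3 lower, and the median difference was -0.06. Not all are first transcribed there, since pal-1 among the higher ones has maternal mRNA. These shares lie near those over all genes, and 20 of the 30 genes passed the filter on low levels. pal-1, a homeodomain regulator with maternal mRNA, differed by 2.62, at 7.46, 7.38 and 7.26 with phenylalanine-betaxanthin and 7.62 on indicaxanthin 3, against 4.40, 4.84 and 5.27 on the low-yolk arrays. end-1, an endoderm GATA factor, stood at 1.66, 1.66 and 1.54 and at 1.66, against 1.51, 1.66 and 1.91, and pes-10, end-3 and tbx-37 overlapped likewise. The endomesoderm GATA factor med-2 was lower by 2.41 and sdz-27 higher by 1.82.

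Of 13 genes listed for the gonadal sheath and spermatheca, 5 were higher and 5 lower. Some are innexins of junctions that have a germ cell side, so these counts are not of somatic cells alone. The higher ones were the innexins inx-8 (5.73), inx-22 (4.84), inx-14 (4.55) and inx-9 (2.65), which form the gap junctions between sheath cells and germ cells, and sth-1 (2.28), a spermatheca gene. inx-8 stood at 7.51, 7.51 and 7.49 with phenylalanine-betaxanthin and 7.68 on indicaxanthin 3, against 1.33, 1.66 and 2.58 on the low-yolk arrays. The lower ones were the troponin T gene tnt-3, the phosphatase ipp-5, the sheath regulators ceh-18 and lim-7, and plc-1. In the vulva and uterus list of 18, lin-3, the epidermal growth factor, was the only higher gene (2.78), while vab-23, egl-13 and egl-38 were lower. ule-3, named for its expression in the uterus, differed by 7.16.

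**Figure D3:**
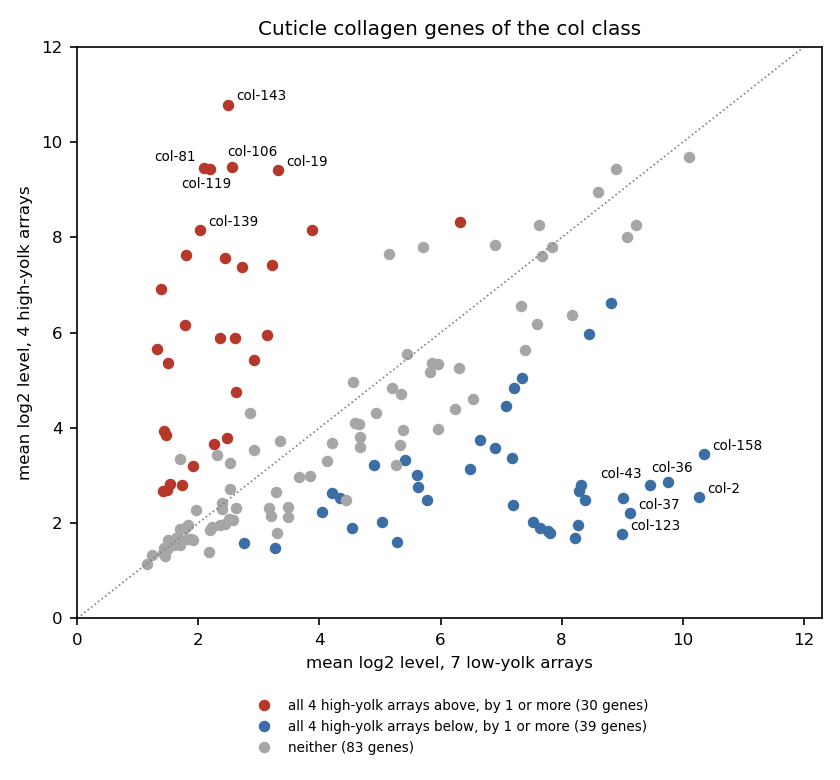
Mean log2 level of 152 col genes on the 4 high-yolk arrays (vertical) against the 7 low-yolk arrays (horizontal), each point 1 gene and the dotted line equal levels. The 30 higher genes lie above the line at low horizontal values, and the 39 lower genes lie below it, with col-143 and col-2 at the extremes.

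The cuticle collagens of the col class lay on both sides. Of 152 genes 30 were higher and 39 lower, and 9 and 16 of them differed by 5 or more. Their median difference was -0.42, and -1.06 between indicaxanthin 3 and indicaxanthin 1 and 2. The higher set was led by col-143, at 10.77, 10.88 and 10.79 with phenylalanine-betaxanthin and 10.73 on indicaxanthin 3, against 1.81, 2.43 and 3.10 on the low-yolk arrays. col-81 (7.37), col-119 (7.23), col-106 (6.94), col-139 (6.12), col-181 (5.84), col-179 (5.53) and col-8 (5.13) followed, along with col-19. The lower set was led by col-2, at 2.61, 3.03 and 1.87 and at 2.70, against 9.54, 10.62 and 10.84. col-123 (-7.22), col-37 (-6.92), col-158 (-6.90), col-36 (-6.89) and col-43 (-6.65) came next.

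Collagens catalogued as adult or late L4 were less uniform than col-19. Of 7 measured, col-19, col-138 (3.28) and col-38 (1.40) were higher. col-49 stood at 1.99, 3.79 and 4.48 with phenylalanine-betaxanthin and 3.12 on indicaxanthin 3, against 1.36, 1.70 and 2.02 on the low-yolk arrays. Its phenylalanine-betaxanthin 1 array overlapped the low-yolk range, and col-63 overlapped on that array too. bli-1 and bli-2, collagens of the struts of the adult cuticle, stood at 1.96 to 3.17 and 2.06 to 2.54 on the high-yolk arrays, against 1.46 to 2.03 and 1.15 to 2.06 on the low-yolk arrays, near the array median on both sides. col-38, col-49, col-63 and col-138 were all highest on phenylalanine-betaxanthin 3 and lowest on phenylalanine-betaxanthin 1 within the high-yolk class.

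Body shape genes, whose mutants are dumpy, roller or long, had 8 of 18 lower and none higher. The median difference was -1.57, and -2.82 between indicaxanthin 3 and indicaxanthin 1 and 2. dpy-3, a collagen of the annular furrows, stood at 3.29, 2.69 and 3.97 with phenylalanine-betaxanthin and 3.36 on indicaxanthin 3, against 6.96, 7.34 and 7.57 on the low-yolk arrays. The furrow collagens dpy-8 and dpy-2 differed by -2.90 and -2.78, rol-8 by -3.80 and dpy-9 by -3.47. dpy-18, a collagen prolyl hydroxylase and not a collagen, differed by -2.47. rol-6, at 4.63, 4.20 and 4.75 and at 3.85, overlapped the low-yolk range of 3.84 to 7.04, whose lowest array was indoline-betacyanin 2. The list mean was 4.34 to 5.06 on the high-yolk arrays, against 5.64 to 5.84 with indoline-betacyanin and up to 7.15 on the other low-yolk arrays.

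Genes of moulting stood lower. Of 35 moulting effectors and apical matrix genes, 22 were lower and none higher, with a median of -2.37 and a mean level of 3.57 to 3.92 on the high-yolk arrays, against 5.56 to 5.86 on the low-yolk arrays. cut-1, a cuticlin, stood at 2.03, 2.0 and 2.15 with phenylalanine-betaxanthin and 2.13 on indicaxanthin 3, against 5.56, 7.84 and 8.47 on the low-yolk arrays. lpr-3, a lipocalin of the apical matrix, differed by -3.83, mlt-8 by -3.61, the patched-related ptr-4 by -3.53, the apical matrix protein noah-1 by -2.90 and the fibrillin-like fbn-1 by -2.82. mlt-10, a gene used as a moulting reporter, stood at 3.10, 3.12 and 3.29 and at 2.59, inside the low-yolk range of 2.09 to 4.85. nas-37, a protease of cuticle shedding, lay above by 0.90. The moulting regulators had 9 of 16 lower and none higher, among them acn-1 (-3.23), nhr-25 (-2.83), a nuclear receptor, and myrf-1 (-2.71), a membrane-bound transcription factor. nhr-23, the nuclear receptor at the head of each moult, overlapped, at 7.21, 6.79 and 7.0 and at 7.12, against 6.88, 7.37 and 7.58.

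The hedgehog-related and patched-related genes, secreted and membrane proteins of nematode epidermis, had 37 of 85 lower and 1 higher, with a median of -1.20. Members of the ground-like (grl) family were at the extreme. grl-20 stood at 1.87, 2.60 and 2.50 with phenylalanine-betaxanthin and 2.35 on indicaxanthin 3, against 8.88, 9.80 and 10.19 on the low-yolk arrays, and grl-23 (-7.09), grl-19 (-7.06), grl-3 (-6.56) and grl-25 (-5.84) were alongside. Of 12 seam and hypodermal regulators 6 were lower and none higher, led by the cell fusion gene eff-1 (-2.16) and the engrailed homologue ceh-16 (-2.0). Outside the lists, acs-2, an acyl-CoA synthetase, differed by -6.61 and the alpha-tubulin tba-8 by -6.31.

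The heterochronic regulators had 9 of 17 lower and 3 higher, with a median of -1.13, and -0.74 between indicaxanthin 3 and indicaxanthin 1 and 2. lin-42, the PERIOD homologue that cycles with the moults, stood at 3.85, 4.11 and 4.76 with phenylalanine-betaxanthin and 3.88 on indicaxanthin 3, against 5.89, 6.27 and 7.05 on the low-yolk arrays. lin-14, which specifies the early larval stages, stood at 2.74, 2.50 and 3.02 and at 2.73, against 3.88, 4.27 and 5.20. The Hunchback-like hbl-1 differed by -2.21, the nuclear receptor daf-12 by -2.25, blmp-1, a zinc finger regulator, by -1.99 and dre-1, an F-box protein, by -1.76. lin-29, the transcription factor that triggers the larva-to-adult switch of the hypodermis, was lower, at 5.15, 5.27 and 5.14 and at 4.88, against 5.84, 6.31 and 6.56. sea-2 (-1.19) and the microRNA Argonaute alg-1 (-1.04) were the other lower members. mab-10, the cofactor of lin-29, was higher, at 5.28, 5.64 and 5.67 with phenylalanine-betaxanthin and 5.36 on indicaxanthin 3, against 3.34, 4.10 and 4.90 on the low-yolk arrays. nhl-2 (1.37) and lep-2 (1.19) were higher too. lin-28, the RNA-binding protein of early stages, stood at 2.91, 2.97 and 2.47 and at 2.83, against 2.86, 2.92 and 3.00, and din-1, lin-46 and alg-2 also overlapped. The let-7 and lin-4 microRNAs were not analysed here.

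Neuronal genes stood lower as well. Of 20 pan-neuronal genes 12 were lower and none higher, with a median of -1.29, and of 11 touch receptor neuron genes 9 were lower, with a median of -1.93. rab-3, a synaptic vesicle GTPase, stood at 4.65, 4.96 and 5.14 with phenylalanine-betaxanthin and 4.66 on indicaxanthin 3, against 6.59, 6.79 and 6.94 on the low-yolk arrays. The peptide-processing enzymes egl-3 and egl-21 differed by -2.37 and -2.35, and mec-7 and mec-17, tubulin and tubulin acetyltransferase of touch neurons, by -2.72 and -2.54. Of 109 flp and nlp genes 64 were lower and none higher, with a median of -1.47. The lowest were nlp-43 (-4.19), nlp-68 (-4.07) and flp-4 (-3.89). The list takes all nlp genes, among them nlp-28 and nlp-32 of the epidermal antimicrobial cluster, so it is not neuronal alone. The flp genes by themselves had 22 of 31 lower and none higher, with a median of -1.90. Of 15 egg-laying and adult neuron genes 4 were lower, ida-1, nlp-3, egl-19 and unc-103, and the median was -0.22. Among 1278 chemoreceptor genes, with a list mean of 1.37 to 1.43 on the high-yolk arrays and 1.46 to 1.54 on the low-yolk arrays, 1 was higher, sri-40 (3.87), and 14 were lower, led by srw-85 (-4.44).

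Of 24 body wall muscle genes 7 were lower and none higher, with a median of -0.68: the troponin I gene tni-1 (-1.96) was lowest, while the myosin unc-54 overlapped at 9.44 to 9.71, against 9.01 to 9.83. Of 20 intestine genes 4 were lower, mtl-1 (-3.03), elt-2 (-1.88), elt-4 (-1.25) and ges-1 (-1.11), and the peptide transporter pept-1 was higher (1.89). elt-2, the GATA factor of the intestine, stood at 5.82, 5.77 and 5.87 with phenylalanine-betaxanthin and 5.74 on indicaxanthin 3, against 7.16, 7.67 and 8.14 on the low-yolk arrays. Among 11 regulators of yolk expression rict-1 (1.78) and ceh-60 (1.15), a homeodomain factor of the adult intestine, were higher, and elt-2, sma-3 and lin-29 lower. Pharyngeal muscle had 1 of 10 higher, tni-4, and 1 lower, pha-4; its median of 0.05 turned to -0.49 between indicaxanthin 3 and indicaxanthin 1 and 2. Of 244 C-type lectins, 24 were higher (9.84%) and 31 lower (12.7%), from clec-87 (6.11) to clec-61 (-6.27). These shares lie near the 13.7% and 11% over all genes, and the median difference was -0.06.

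Ribosomal proteins and histones had medians near 0, with histone members on both sides. The ribosomal list of 75 had a median of -0.03, which became 0.12 under a further quantile normalization, with 2 higher and 1 lower. rpl-11.1 stood at 10.89, 10.75 and 10.68 with phenylalanine-betaxanthin and 10.89 on indicaxanthin 3, against 6.88, 7.57 and 8.48 on the low-yolk arrays, while its paralogue rpl-11.2 lay below by 0.81. rpl-23A.1 differed by -1.87 and rpl-23A.2 by 0.60. Of 50 histone genes 9 were higher (18%) and 8 lower (16%), against 13.7% and 11% over all genes. They ran from -2.40 to 5.16, with a median of -0.07 that became 0.05 under quantile normalization. The replacement histone genes parted: his-74 and his-70 were higher by 5.16 and 3.43 and his-71 differed by -2.40, and among linker histones hil-4 and hil-5 were higher and hil-1 and hil-3 lower. Histone copies and ribosomal paralogues can share probes, so single members are uncertain.

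**Figure D4:**
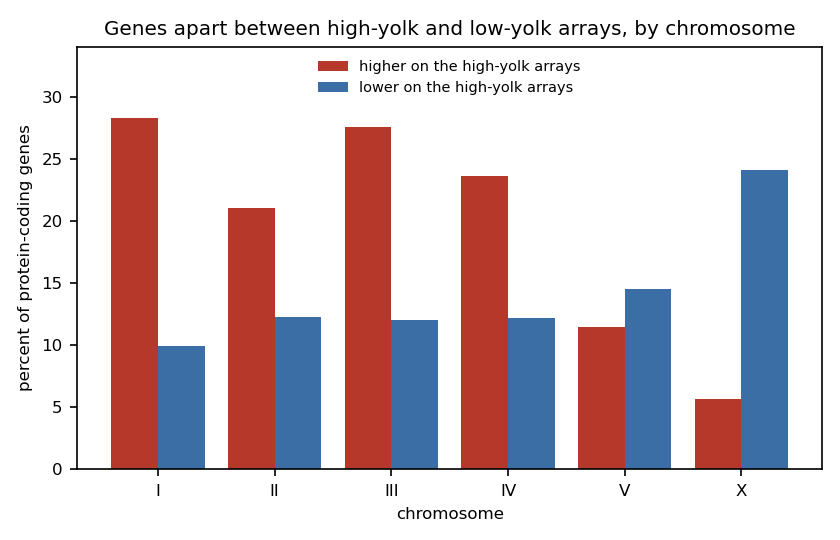
Percent of measured protein-coding genes that were higher or lower on the high-yolk arrays (bars, from 0) on each chromosome. The higher share is 28.3% on chromosome I and 5.65% on X, and the lower share is 24.1% on X.

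The called genes were spread unequally over the chromosomes, taken from RefSeq (WBcel235). On the X chromosome 149 of 2638 protein-coding genes (5.65%) were higher and 636 (24.1%) lower. On the autosomes together 21% were higher and 12.4% lower, with chromosome I at 28.3% and 9.90% and chromosome V at 11.4% and 14.5%. The median difference was -0.34 on X, against 0.01 on the autosomes. Of the 21 X-linked genes that were higher by 5 or more, 5 were vit genes. Others were col-19, col-181, col-179, meg-1, tbh-1 (5.80), the tyramine hydroxylase of octopamine synthesis, and ttr-42 (5.23). By biotype, 3622 of 19201 protein-coding genes were higher and 2696 lower, while 5 of 6758 ncRNA genes were higher and 218 lower.

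The split could be followed in 2 steps that share no arrays: indicaxanthin 3 minus indicaxanthin 1 and 2, and phenylalanine-betaxanthin minus control. The differences correlated at 0.902 across 26727 genes, which are not independent replicates, and all these arrays had entered the choice. In the same order the oocyte list had medians of 5.85 and 5.41, the eggshell list 5.94 and 5.49, meiosis 3.11 and 3.08, and moulting effectors -2.39 and -2.16. Sheath and spermatheca genes had 0.05 and 0.76. The first step has 1 array on its upper side and so no spread of its own.

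Within the high-yolk class phenylalanine-betaxanthin (3 arrays) could be set over indicaxanthin (1 array, picked by its vit-2 level), both at 25 uM for 48 h. limma was fitted to all 11 arrays, with the 2 indicaxanthin states as separate groups, and the lone array was assumed to vary like the rest. Of 20045 genes tested 2 were called higher (0.00998%) and 3 lower (0.015%) at an adjusted p under 0.05, while 774 had an unadjusted p under 0.05. With the high-yolk arrays fitted alone, or with the trial number as a block, 0 genes passed. The 5 calls thus rest on the values of 1 array and are given as values, with no gene's p. igeg-2 stood at 6.84, 6.97 and 6.83 with phenylalanine-betaxanthin, against 5.49 on the indicaxanthin array. The collagen col-149 stood at 4.55, 5.25 and 4.91, against 3.15. D2096.6 stood at 1.37, 1.84 and 1.61, against 4.01, and the indicaxanthin array was the only one of the 11 above 2.0 for it. Y51H7C.13 and Y47G6A.15, the other lower genes, stood at 5.92 and 5.46 on that array. The median 95% interval of a change reached 0.484 on either side, and 90% of genes had at most 0.709, so changes of that size were not resolved. Among list members col-149 alone was called.

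Among the low-yolk arrays, indoline-betacyanin differed widely from control. limma called 3428 genes higher (17.1%) and 3616 lower (18%). Centring each array on its median moved the median of all genes to 0.21 from 0.05 and gave 5092 higher and 2757 lower. Without control 1 the higher count was 2236. Of 143 col genes tested 3 rose and 78 fell, with a median of -0.77, against 0.03 over all genes tested, and of 18 body shape genes 1 rose and 10 fell. col-157 stood at 2.71, 2.66 and 2.71 with indoline-betacyanin, against 7.76 and 7.26 on the controls, a change of -4.82 (SE 0.18, limma adjusted p = 2.11e-08). The body shape collagen sqt-2 stood at 4.47, 4.74 and 5.12, against 8.67 and 8.52, a change of -3.82 (SE 0.19, limma adjusted p = 1.17e-07). The 3 indoline-betacyanin arrays thus lay below both controls for either collagen. On the high-yolk arrays col-157 lay at 4.64 to 4.96 and sqt-2 at 4.91 to 6.19. The additional control sample described below was not in the fit, so the p-values leave out its distance from these 2 controls. The moulting effectors had 7 higher and 11 lower of 33, the hedgehog-related genes 8 and 39 of 78, and histones 2 and 36 of 50.

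The neuronal lists did not all move one way in that comparison. Of 20 pan-neuronal genes 13 rose and none fell, with a median of 0.83. Of 11 touch neuron genes 6 rose and none fell. Of 105 flp and nlp genes, which include the epidermal nlp genes, 58 rose and 10 fell. Chemoreceptors had 46 higher and 89 lower of 337, and egg-laying and adult neuron genes 3 higher and 3 lower of 13. Only 337 of 1278 chemoreceptor genes passed the filter on mean level, some, such as srg-36, through high control values alone. The chemoreceptor counts are therefore read no further. nlp-79 stood at 8.74, 8.51 and 8.61 with indoline-betacyanin, against 5.79 and 5.65 on the controls, a change of 2.90 (SE 0.14, limma adjusted p = 9.72e-08). zmp-1, a metalloprotease of anchor cell invasion, stood at 6.21, 6.42 and 6.34, against 2.80 and 3.12, a change of 3.36 (SE 0.19, limma adjusted p = 2.23e-07). On the high-yolk arrays zmp-1 was at 2.63 to 2.92. Of the reproductive lists, 1 rose and 4 fell of 21 oocyte genes, none rose and 1 fell of 17 eggshell genes, and 2 rose and 5 fell of 29 meiotic genes. Of the germ stem cell and switch list 2 rose and 8 fell of 22, of replication genes 2 rose and 12 fell of 37, of P granule genes none rose and 3 fell of 22, of sheath and spermatheca genes 4 rose and 2 fell of 13, and of sperm activation genes 4 rose and 4 fell of 25. None of 25 major sperm proteins passed. Over all genes 17.1% rose and 18% fell.

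Against the low-yolk indicaxanthin arrays, indoline-betacyanin at the same dose and time had 2874 genes higher (14.3%) and 2679 lower (13.4%) by limma. Here too 2 col genes rose and 81 fell of 143, and 15 of 20 pan-neuronal genes rose and none fell. col-93 stood at 1.44, 1.85 and 1.82 with indoline-betacyanin, against 7.89 and 8.99 with indicaxanthin, a change of -6.74 (SE 0.30, limma adjusted p = 3.86e-07). mec-4, the channel subunit of touch sensing, stood at 5.07, 4.74 and 4.73, against 2.85 and 2.59, a change of 2.13 (SE 0.15, limma adjusted p = 3.28e-06). These 2 indicaxanthin arrays were kept by the vit-2 rule.

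The low-yolk indicaxanthin arrays over control gave 609 genes higher (3.04%) and 1472 lower (7.34%) by limma. Indicaxanthin 1 and 2 were kept by the vit-2 rule, with indicaxanthin 3 as a group of its own. The p-values thus leave out its distance from them, and that of the additional control described below from the 2 control arrays. Centring each array gave 1607 and 1298 and a further quantile normalization 990 and 1282, so the direction of the balance depended on the scaling. Without control 1 there were 152 higher and 966 lower. The higher count was 1764 without indicaxanthin 1 and 216 without indicaxanthin 2. Of 337 chemoreceptor genes tested 3 rose and 66 fell. The other members of the 1278 measured failed the filter on mean level. Genes near the floor elsewhere could pass it through high control values, which favours falls, so these counts are read no further. srg-36, a pheromone receptor, stood at 2.30 and 1.96 with indicaxanthin, against 5.15 and 5.49 on the controls (change -3.20, SE 0.18). It lay at 1.12 to 1.51 on the remaining arrays and passed the filter only through the controls, so its p is not given. The antimicrobial peptide gene cnc-2 stood at 7.43 and 7.87, against 5.21 and 5.34 (change 2.38, SE 0.19, limma adjusted p = 1.06e-05). It lay at 6.93 to 7.78 on the other betalain arrays, so this level was not particular to these indicaxanthin arrays.

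**Figure D5:**
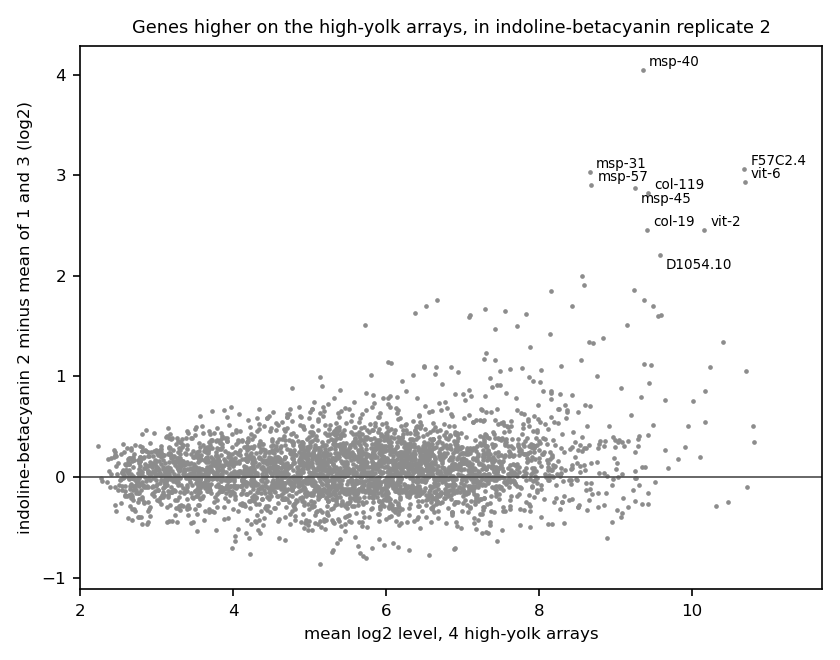
Indoline-betacyanin replicate 2 minus the mean of replicates 1 and 3 (vertical, log2) for the 3660 genes higher on the high-yolk arrays, against their mean level on those arrays (horizontal, log2). Most points lie near 0, and the points above 2 have high-yolk levels above 8, with msp-40 at the top.

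Among genes other than vit, 1 low-yolk array stood apart by which genes lay above the other low-yolk arrays, not by how many. On indoline-betacyanin 2, 26 genes other than vit exceeded every other low-yolk array by 1 or more. Of them 24 were genes called higher and none genes called lower. This array had entered both the vit-2 split and the calls, so the count is a description. Counted over all genes, the other low-yolk arrays had between 1 and 252, of which 9 at most were called higher. msp-40 stood at 5.94, msp-45 at 4.72, msp-57 at 4.61 and col-119 at 4.53 on this array. The excess over replicates 1 and 3 followed the level on the high-yolk arrays: its median was 0.04 for genes below a high-yolk level of 4, 0.15 for those from 8 to 9 and 0.31 for those from 9 to 10. In the range from 9 to 10, which includes vit-1 and vit-3, 13 of 55 genes (23.6%) exceeded by 1 or more. At 10 or more, with vit genes left out, 3 of 11 genes did. The list means on this array were the highest of the low-yolk arrays for major sperm proteins (2.73) and the eggshell list (3.29, with control 1 at 3.29 too), while the oocyte list, at 3.00, came after control 1 at 3.25. The median excess over replicates 1 and 3 was 0.78, 0.41 and 0.30 for these lists.

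A control sample besides the 2 arrays is implied by the authors' deposited tables, in which the between-group sum of squares was a median of 1.5 times the squared log2 ratio, the value for 3 samples against 3. Computed from the authors' deposited tables, its profile correlated at 0.982 to 0.984 with the high-yolk arrays and at 0.780 to 0.823 with the low-yolk arrays. By both of the authors' deposited tables that could be used, it lay on the high-yolk side of the midpoint for 3499 of the 3660 higher genes (95.6%) and 2806 of the 2953 lower genes (95.0%). rme-2 came to 7.94 and 7.89 and col-2 to 2.63 and 2.75 from the authors' deposited tables for indoline-betacyanin and phenylalanine-betaxanthin. In the same order the oocyte list mean came to 7.85 and 8.42 from the authors' deposited tables. Over all genes these 2 estimates from the authors' deposited tables differed by a median of 0.217. The vulval regulator egl-38 was among 9 lower genes on the low-yolk side by the authors' deposited tables. These values from the authors' deposited tables share the 2 control arrays and are no independent support.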

How the data were processed

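The deposited values are log2 signals, 1 for each of 29317 transcript clusters on each of 11 arrays, which the authors made with RMA (background correction, quantile normalization and probe summary) per the submitters' processing notes. Per the labels' protocols 3.5 ng of RNA per sample was amplified with the GeneChip WT Pico kit. Not given in the sources used here are its version, the array model and the annotation release. Each betalain is set against control in the authors' deposited tables as a linear ratio, with an unadjusted p-value and sums of squares, named score here, per the file headers. The p-values were not used.

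Of the clusters, 27055 carried a gene name, 26853 of which matched RefSeq (WBcel235); the cluster of highest mean stood for each of 26727 genes. Arrays were split at a vit-2 level of 6, and group means, overlaps and list medians were computed with no test. limma 3.58.1 (lmFit, eBayes, R 4.3.3) was fitted to all 11 arrays in 1 model with 5 groups (control, low-yolk indicaxanthin, high-yolk indicaxanthin and the other betalains), with no block, on 20045 genes above the 25th percentile of mean level (1.52), with 6 residual degrees of freedom and Benjamini-Hochberg adjustment at 0.05. On simulated data with 200 genes changed by 2, it recovered 132 for phenylalanine-betaxanthin over indicaxanthin, 150 for indoline-betacyanin over control and 148 for indicaxanthin over control. A control sample besides the 2 arrays was solved per gene from the ratio and the 2 control arrays. Detection calls were not used here, so levels near the array median have uncertain differences; the number of arrays limits the precision. The genes named are the 15 with the largest difference in each direction among named protein-coding genes that did not overlap, members with the largest differences in each list, all heterochronic genes and adult collagens, and those with the smallest adjusted p in each limma comparison; members named beyond these were chosen after their values were seen. The members and lists were chosen with earlier results of these data known. Figures were drawn with matplotlib 3.10.9.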

Additional observations from a re-analysis of the deposited data

Results flagged for a closer look

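The highest or lowest array of a group was checked for standing apart by Dixon's criterion, in 144 groups of 4 or 7 arrays, and 17 stood apart. Chance would give about 1 in 20 for independent groups, which these were not. Of these, 8 were indoline-betacyanin 2 as the highest of the low-yolk arrays. They included vit-2 (5.15), which split the arrays, and the yolk list mean (3.17), which holds vit-2. The other 6 were msp-40 at 5.94, msp-45 at 4.72, col-119 at 4.53, col-106 at 3.93, col-81 at 3.13 and the major sperm protein list mean at 2.73. These genes were named for large differences that this array had entered, and the list holds msp-40 and msp-45. None of the 8 thus lends this array's place support. Among the low-yolk arrays pos-1 was highest on control 1 (2.96), and indicaxanthin 2 was lowest for tba-8 (8.06) and for the heterochronic list mean (5.08).

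Among the high-yolk arrays, phenylalanine-betaxanthin 3 was lowest for gfat-2 (9.44) and highest for col-123 (2.33) and tba-8 (3.14). Phenylalanine-betaxanthin 2 was highest for col-106 (9.68) and grl-3 (2.54). Indicaxanthin 3 was lowest for the intestine list mean (6.43), which lay below the low-yolk range of 6.46 to 7.40, while the phenylalanine-betaxanthin arrays reached 6.61.

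A signal outside the 11 arrays was the oocyte list mean of 7.85 in the additional control sample computed from the authors' deposited table for indoline-betacyanin, against 3.25 and 2.84 on control arrays 1 and 2.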

How the results depend on the processing

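Requiring a difference of 2 or more left 1608 higher and 1026 lower genes between high-yolk and low-yolk arrays, and leaving out each array in turn gave 3603 to 3767 higher and 2954 to 3058 lower. For phenylalanine-betaxanthin over indicaxanthin, the 2 higher genes became 1 with no filter or a further quantile normalization, 5 with a filter at the median, and 6 with trended and robust eBayes or with array weights. They became 0, and the 3 lower genes 0, with only the high-yolk arrays fitted. Leaving out each array gave 0 (without phenylalanine-betaxanthin 2) to 6 higher (without phenylalanine-betaxanthin 1) and 2 to 3 lower. For indicaxanthin over control, higher genes numbered 990 with quantile normalization, 1607 with centring, 286 with array weights and 392 with only the low-yolk arrays, and lower genes numbered 712 with a filter at the median. Leaving out each array gave 152 to 1764 higher and 966 to 1894 lower there, 2236 to 3117 higher and 2530 to 3156 lower for indoline-betacyanin over control, and 2305 to 2748 higher and 2034 to 2818 lower for indoline-betacyanin over indicaxanthin. The causes were not tested.

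Deviations of same-numbered arrays correlated at -0.123 to 0.173, so the trial numbers were not taken to pair the arrays. With the trial number as a block, phenylalanine-betaxanthin over indicaxanthin had 0 higher and 0 lower genes, indoline-betacyanin over control 3183 and 3250, indicaxanthin over control 586 and 1400, and indoline-betacyanin over indicaxanthin 2644 and 2323. Of single genes in the limma comparisons, 807 values across settings kept their side of the threshold and 19 lost it, all of them in phenylalanine-betaxanthin over indicaxanthin. Of the high-yolk against low-yolk values, 706 moved by less than the spread between arrays and 16 by more. For list medians these counts were 596 and 50.

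The high-yolk class holds 1 indicaxanthin array, and the low-yolk class 2 controls, so contrasts within a class rest on few arrays. Levels near the array median were not tested against background, so the size of a difference that starts there is uncertain.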

Other observations

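Gene classes with 8 or more measured genes gave further groups, sorted by the median difference between high-yolk and low-yolk arrays and picked after their values were seen, as values with no test. Among the highest medians were snpc (2.50), genes of small nuclear RNA transcription, him (2.35, 10 of 11 higher), named for a high incidence of males, rde (1.88), of RNA interference, ints (1.67), of the Integrator complex, and npp (1.63, 22 of 26 higher), of the nuclear pore. The translation factors eif (5 of 25 higher) and the splicing factors rsp (1 of 8 higher) had fewer members called. The lowest median of all was that of the ribosomal RNA genes, rrn (-2.76), with none of 8 called. Among the lowest medians were bus (-1.99, 9 of 14 lower), genes of surface properties that bacteria adhere to, far (-1.80, 6 of 8 lower), fatty acid and retinol binding proteins, clc (-1.31, 16 of 30 lower), claudin-like genes, tsp (-1.21), tetraspanins, and lipl (-1.21, 5 of 8 lower), lipases.

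Among 17 genes of dauer and starvation, 5 were lower and 1 higher. ins-35, an insulin-like peptide, stood at 3.11, 3.19 and 2.76 with phenylalanine-betaxanthin and 2.56 on indicaxanthin 3, against 6.90, 7.93 and 8.86 (lowest, median and highest) on the low-yolk arrays. col-40 and ins-18 differed by -5.75 and -3.60, and ins-7 was higher by 1.97. The list median was -0.68, and -1.25 between indicaxanthin 3 and indicaxanthin 1 and 2.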
